A study of Drosophila melanogaster with 6 samples.

Results

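Ugt302C1, Ugt301D1, Ugt49C1, Ugt36A1, Ugt36E1, Ugt36F1, Ugt37A3, Ugt37D1 and Ugt50B3 are 9 Drosophila melanogaster genes for UDP-glycosyltransferases that lie outside the Ugt35 group, the group of the gene targeted in the study. They were taken by FlyBase identifier from a table of 17753 genes that holds 35 Ugt genes, 29 of them outside the Ugt35 group. The choice was described as the well measured ones, but counts alone do not give it. Ugt37A3 averaged 16.2 counts per library, whereas Ugt49B1, with 861 counts, Ugt316A1, with 475.5, Ugt36D1, with 297, and Ugt317A1, with 170.3, were not chosen. Of the 16 Ugt genes outside the Ugt35 group that had enough counts to be tested, the 9 chosen had the 9 lowest log2 fold changes (RU486 minus EtOH). The chosen gene nearest the limit was Ugt50B3, at -0.21, and the nearest gene left out was Ugt49B1, at -0.13. In effect the genes were chosen by that measured fold change, so a lower level in RU486 is a property of the choice. It is described here and supports nothing, and the account of all 16 genes is given beside it.

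All libraries came from male flies of 1 genotype, which carried a construct for RNA interference against Ugt35b under Repo-GS, a GeneSwitch driver for all glia that acts only in the presence of the drug RU486. The group given RU486, in which the construct is on, and the group given the solvent EtOH, in which it is off, had 3 libraries each, made at day 10 from 10 flies per library. The tissue is labelled head, but the protocol for the RNA speaks of brains. Transcripts of the eye and of muscle were abundant in every library, as 12 eye markers summed to between 62142 and 75712 counts scaled to a library of 1000000 counts (CPM). Nothing in the labels tells whether replicates came from separate cultures, so every p-value here rests on a spread among libraries that may be technical. Replicate 2 stood apart in both groups: the counts of RU486 replicate 2 differed from those of the other RU486 libraries by a chi-square per degree of freedom of 28.6 and 37.0, against 8.68 between RU486 replicates 1 and 3, and EtOH replicate 2 differed from its group by 18.9 and 25.7, against 8.03 between EtOH replicates 1 and 3. A library with RU486 but without the construct was not analysed here, so the effect of the drug and that of the knockdown cannot be told apart.

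UDP-glycosyltransferases are membrane enzymes of the endoplasmic reticulum. They transfer a sugar from a UDP-sugar, in insects chiefly glucose from UDP-glucose, to small fat-soluble molecules, which become more soluble in water and can be exported. The N-terminal domain of the protein binds the acceptor and differs most between members, and the C-terminal domain binds the UDP-sugar. In insects the family is known from the clearance of plant compounds and insecticides, from the handling of hormones and pigments, and from the antenna, where such enzymes are thought to remove odorants. The acceptors of most fly members are not known.

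The 9 genes lie on 3 chromosome arms, and all but 3 of them have another Ugt gene within 2000 bases. Positions are 1-based on build BDGP6.54. Ugt302C1 (FBgn0040259, chromosome 3R, 11157098 to 11159744, plus strand) lies in the same row of genes as Ugt35B1, the target (chromosome 3R, 11168503 to 11170246, minus strand), with 8759 bases between them. Ugt37A3 (FBgn0038083, 3R, 12741958 to 12743680, minus strand) lies elsewhere on that arm, 541 bases from Ugt37A2. Ugt36F1 (FBgn0027074, 2L, 18819344 to 18822573) and Ugt36E1 (FBgn0027070, 2L, 18826770 to 18829059) flank Ugt36D1 on the plus strand. Ugt36A1 (FBgn0015663, 2L, 3619097 to 3621573), Ugt37D1 (FBgn0040260, 2L, 16799025 to 16801584) and Ugt301D1 (FBgn0032684, 2L, 18509560 to 18513512) are also on the plus strand. Ugt49C1 (FBgn0034605, 2R, 21215435 to 21217779, minus strand) lies 463 bases from Ugt49B1. Ugt50B3 (FBgn0050438, 2R, 5496674 to 5549543, plus strand) spans by far the longest stretch and encloses the muscle gene TpnC4 on the other strand, with which it shares no exonic base and which was listed at 0 in every library. Exons of Ugt36A1 overlap those of CG15418 on the other strand by 400 bases, or 17.4% of the exonic length, and those of Ugt36E1 overlap CG17597 by 48 bases. The strand setting of the counting is not given, so reads of such overlaps cannot be assigned with certainty. Members of a family share sequence, and the part of the reads that this affects was not tested.

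Per kilobase of exon, the levels of the 9 genes spanned from 0.504 to 45.0 CPM per kilobase in RU486 and from 1.14 to 54.2 CPM per kilobase in EtOH. Ugt302C1 led with 45.0 ± 1.54 in RU486 and 54.2 ± 1.51 in EtOH (CPM per kilobase, SD, n = 3 each). Ugt49C1 followed with 40.4 ± 2.78 in RU486 and 49.1 ± 4.50 in EtOH, and the ranges of these 2 genes overlapped in EtOH but not in RU486. Ugt301D1 and Ugt37D1 formed a second step, at 25.5 ± 1.33 and 25.4 ± 3.23 CPM per kilobase in RU486 and at 32.1 ± 3.20 and 29.5 ± 1.98 in EtOH, and their ranges overlapped in both groups. Ugt50B3, Ugt36A1 and Ugt36E1 formed a further step, between 8.69 and 9.96 CPM per kilobase in RU486 and between 10.4 and 11.5 in EtOH, again with overlapping ranges of neighbours. Ugt36F1 and Ugt37A3 stood alone below them. Apart from the split of the 2 leading genes in RU486, the ranges separated at the same places in both groups. The unchosen Ugt49B1, at 41.1 ± 3.65 in RU486 and 45.0 ± 7.43 in EtOH, was close to Ugt49C1.

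**Figure D1:**
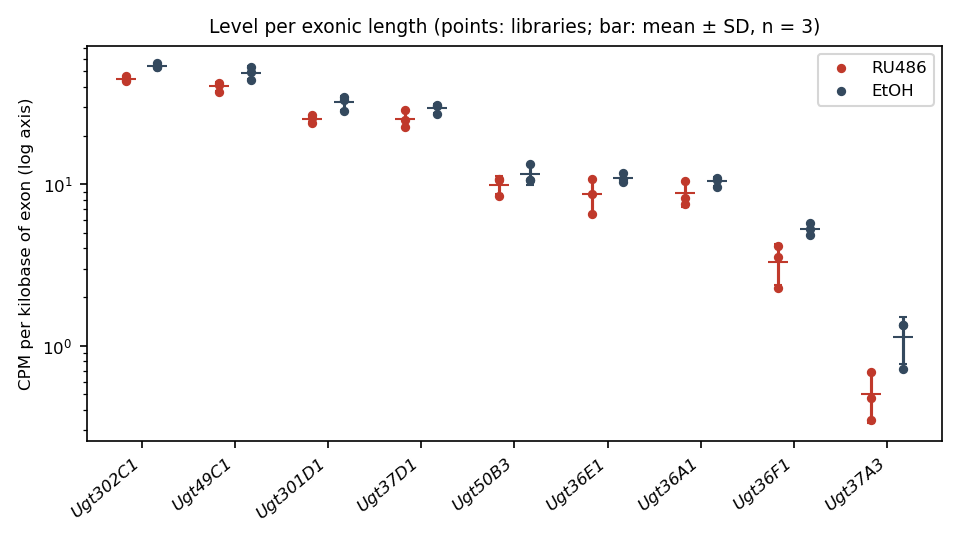
Level of the 9 Ugt genes in CPM per kilobase of exon, on a log axis, with a point for each library and bars for mean ± SD (n = 3), RU486 in red and EtOH in dark blue. Ugt302C1 and Ugt49C1 are highest, at 45.0 and 40.4 in RU486 and 54.2 and 49.1 in EtOH, and Ugt37A3 is lowest, at 0.504 in RU486 and 1.14 in EtOH.

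The values that follow are CPM with TMM factors. Ugt302C1 is the member next to the Ugt35 genes. It had 93.1, 87.2 and 88.7 CPM in RU486 replicates 1 to 3, against 111, 106 and 107 CPM in EtOH replicates 1 to 3. The groups did not overlap, and the libraries within each lay close together, with a coefficient of variation of 3.44% in RU486 and 2.79% in EtOH. The log2 fold change was -0.27 with a standard error (SE) of 0.06.

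Ugt49C1 and Ugt301D1 had the next highest levels of the 9. Ugt49C1 had 78.4, 70.8 and 80.9 CPM in RU486, against 101.5, 84.5 and 93.8 CPM in EtOH (log2 fold change -0.28, SE 0.09). Ugt301D1 had 53.1, 47.9 and 51.1 CPM in RU486, against 66.2, 56.6 and 68.6 CPM in EtOH (log2 fold change -0.33, SE 0.09). For both, the groups did not overlap, RU486 replicate 2 was the lowest library and EtOH replicate 2 was the lowest of its group.

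The 3 members of the Ugt36 subfamily differed in their spread. Ugt36A1 is named Dot in the deposited table, for Dorothy, a gene known from fly blood cells and from pericardial cells. It had 17.3, 24.2 and 19.0 CPM in RU486, against 24.5, 22.3 and 25.2 CPM in EtOH (log2 fold change -0.25, SE 0.13). RU486 replicate 2 lay among the EtOH libraries, and the groups overlapped. Ugt36E1, a gene of olfactory neurons known from the male response to pheromone, had 16.5, 12.5 and 20.6 CPM in RU486, against 20.6, 19.5 and 22.3 CPM in EtOH (log2 fold change -0.33, SE 0.17). Here RU486 replicate 3 reached the EtOH range. Ugt36F1 had 6.95, 3.85 and 5.92 CPM in RU486, against 9.73, 8.13 and 8.84 CPM in EtOH (log2 fold change -0.67, SE 0.22), with no overlap. Ugt36D1, which lies between Ugt36F1 and Ugt36E1 and was not chosen, had 24.8, 26.2 and 31.3 CPM in RU486, against 25.7, 24.6 and 25.5 CPM in EtOH (log2 fold change 0.12, SE 0.10). Within this row of 3 genes, the middle gene thus had a fold change of the other sign, a difference that was not tested.

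Of the Ugt37 subfamily, Ugt37D1 had 43.9, 56.4 and 48.5 CPM in RU486, against 60.4, 53.2 and 59.4 CPM in EtOH (log2 fold change -0.22, SE 0.10). The groups overlapped, as RU486 replicate 2 lay above EtOH replicate 2. Ugt37A3, the member with the fewest reads, had 6, 12 and 8 counts in RU486, against 28, 14 and 29 counts in EtOH, or 0.580, 1.15 and 0.789 CPM in RU486 and 2.25, 1.198 and 2.25 CPM in EtOH. The groups did not overlap, but RU486 replicate 2 and EtOH replicate 2 nearly met. Its log2 fold change was the most negative of the 9, at -1.17, with the widest error, an SE of 0.40.

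Ugt50B3 belongs to a subfamily that is conserved across most insects. It had 35.4, 28.1 and 35.6 CPM in RU486, against 35.05, 35.1 and 44.5 CPM in EtOH (log2 fold change -0.21, SE 0.13). The groups overlapped, with RU486 replicate 2 below and EtOH replicate 3 above the other 4 libraries, which lay between 35.05 and 35.6 CPM.

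**Figure D2:**
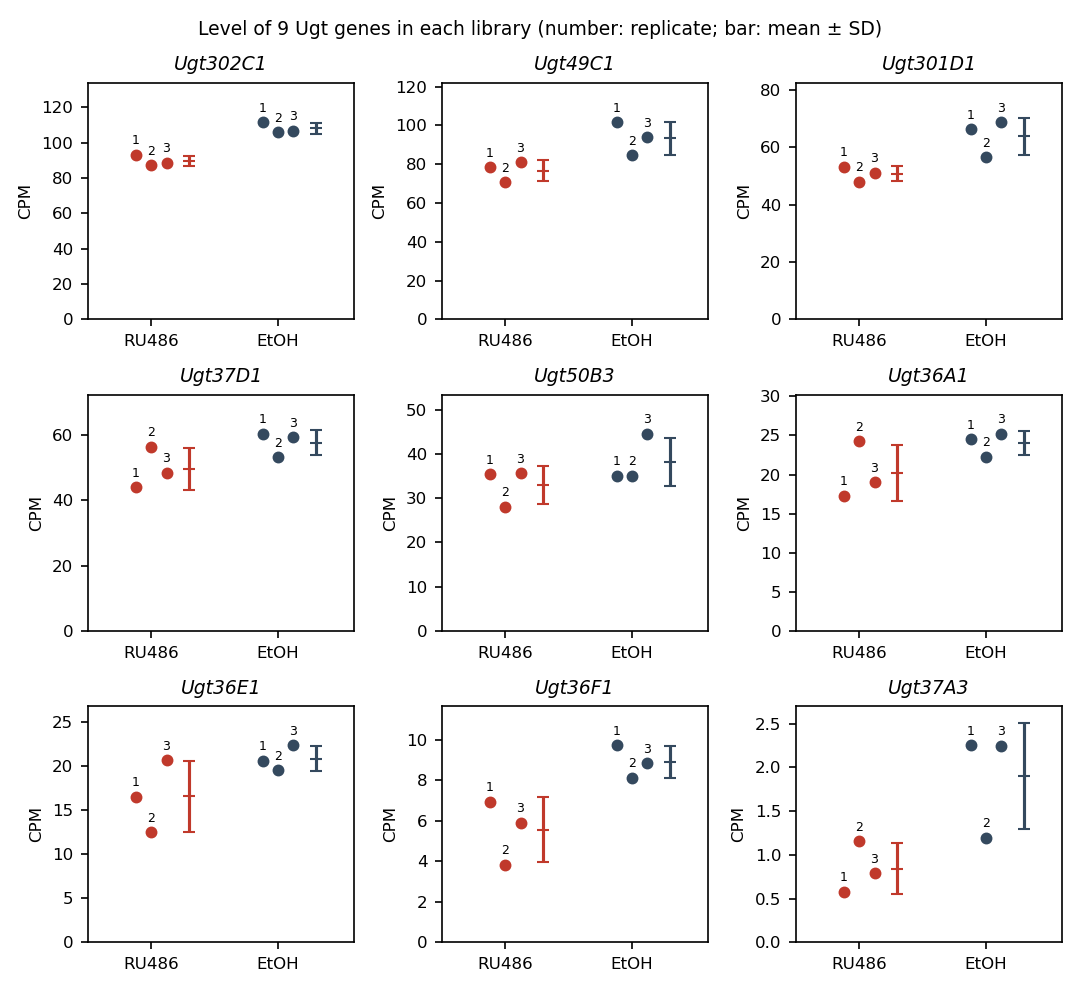
Level of each of the 9 Ugt genes in CPM with TMM factors, on axes that start at 0, with a numbered point for each replicate and a bar for mean ± SD (n = 3), RU486 left of EtOH. The groups are apart for Ugt302C1, Ugt49C1, Ugt301D1, Ugt36F1 and Ugt37A3 and overlap for Ugt37D1, Ugt50B3, Ugt36A1 and Ugt36E1.

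Over all 16 tested Ugt genes outside the Ugt35 group, edgeR's quasi-likelihood test called 1 lower, Ugt302C1 (adjusted p = 0.0303), and 0 higher, and 15 did not pass. The adjustment was over all 8945 genes tested, of which 3.28% were called lower, 4.36% higher and 7.64% in either direction. The call of Ugt302C1 was lost without RU486 replicate 1 (adjusted p = 0.0634), RU486 replicate 2 (0.165), RU486 replicate 3 (0.118), EtOH replicate 1 (0.0865) or EtOH replicate 3 (0.105), with a log2 fold change between -0.31 and -0.25 in those fits. It held without EtOH replicate 2 (0.0162). The adjusted p was 0.0670 for Ugt301D1, 0.0867 for Ugt49C1, 0.101 for Ugt36F1 and 0.117 for Ugt37A3, and between 0.268 and 0.384 for the other 4 chosen genes. An unadjusted p under 0.05 was found for 5 of the 16, against 1999 of all 8945 genes tested. The DESeq2 Wald test called 2 lower, Ugt302C1 and Ugt301D1, while it called 4.27% of all genes tested lower. For the 7 genes not chosen the adjusted p ran from 0.565 to 0.977. The groups did not overlap, with RU486 lower, for 5 of the 16 genes, against 13.5% of all genes tested. Of the 16, 13 had a log2 fold change below 0, with a median of -0.21, against a median of 0.00 over all genes tested. The 3 above 0 were Ugt36D1, Ugt305A1 (0.25, SE 0.50) and Ugt37B1 (0.61, SE 1.05), the last 2 at no more than 2.02 and 4.62 CPM in any library.

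Without EtOH replicate 2, 4 of the 9 were called lower, Ugt302C1, Ugt301D1, Ugt49C1 and Ugt37A3. Genes called in the whole table then numbered 1441 instead of 683, and 588 of 9085 genes tested, or 6.47%, were called lower. Without both replicate 2 libraries, an alternative chosen after seeing the data, 8 genes outside the Ugt35 group were called lower and 0 higher, while 567 of 8990 genes tested, or 6.31%, were called lower in the whole table and 827 higher. They were Ugt301D1, Ugt302C1, Ugt36A1, Ugt37A3, Ugt37D1 and Ugt49C1 of the 9, and Ugt49B1 (log2 fold change -0.33, adjusted p = 0.0174) and Ugt37B1 (-3.46, adjusted p = 0.0374) of those not chosen. With any 1 of the other 5 libraries left out, 0 of the 9 were called by edgeR. In those fits, 1.395% to 1.965% of all genes tested were called lower.

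The target itself, Ugt35B1, had 106, 83.5 and 104 CPM in RU486, against 145, 136 and 147 CPM in EtOH (log2 fold change -0.54, SE 0.09, adjusted p = 0.00865), a call that was lost without EtOH replicate 3 (adjusted p = 0.0566). The 3 other tested genes of the Ugt35 group, Ugt35A1, Ugt35C1 and Ugt35E2, were also called lower, but no more than 2 of the 4 were called in any fit that left out 1 library. Whether the 9 genes differ from the Ugt35 group in their change was not tested.

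**Figure D3:**
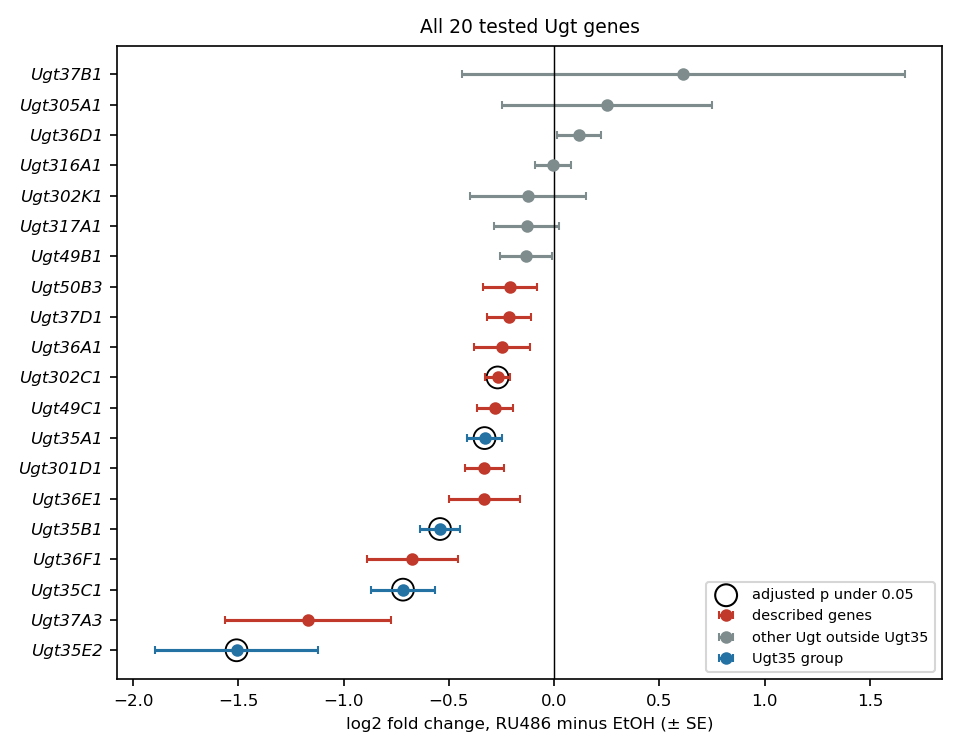
Log2 fold change (RU486 minus EtOH) ± SE of the 20 tested Ugt genes, with the 9 described genes in red, 7 others outside the Ugt35 group in grey and 4 of the Ugt35 group in blue, and a ring around genes with an adjusted p under 0.05. The red genes lie at or below -0.21 and the grey ones at or above -0.13, which shows the choice, and Ugt302C1 is the 1 ringed gene outside the Ugt35 group.

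The 9 genes summed to 345, 332 and 351 CPM in RU486, against 432, 386 and 432 CPM in EtOH, and Ugt302C1, Ugt49C1 and Ugt301D1 made up between 62.0% and 65.1% of that sum in every library. The 20 genes not chosen summed to 158, 190.5 and 161 CPM in RU486, against 178, 150.4 and 179 CPM in EtOH, with overlapping groups. Within the EtOH group, which the choice did not compare, replicate 2 was the lowest library for 8 of the 9 genes and for 6 of the 7 tested genes not chosen, against 44.6% of all genes tested. Within RU486, replicate 2 was the lowest for 6 of the 9, namely Ugt302C1, Ugt49C1, Ugt301D1, Ugt36E1, Ugt36F1 and Ugt50B3, and the highest for the other 3, Ugt36A1, Ugt37A3 and Ugt37D1. Of the 7 tested genes not chosen, RU486 replicate 2 was the lowest for 1 and the highest for 3. Over all genes tested it was the lowest for 34.3% and the highest for 33.5%. A choice of low fold changes favours genes with a low RU486 library, so the RU486 counts for the 9 are a description only. The coefficient of variation within RU486 had a median of 12.96% over the 9 genes and of 7.08% over all genes tested, and within EtOH of 8.99% over the 9 genes and of 9.70% over all genes tested.

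**Figure D4:**
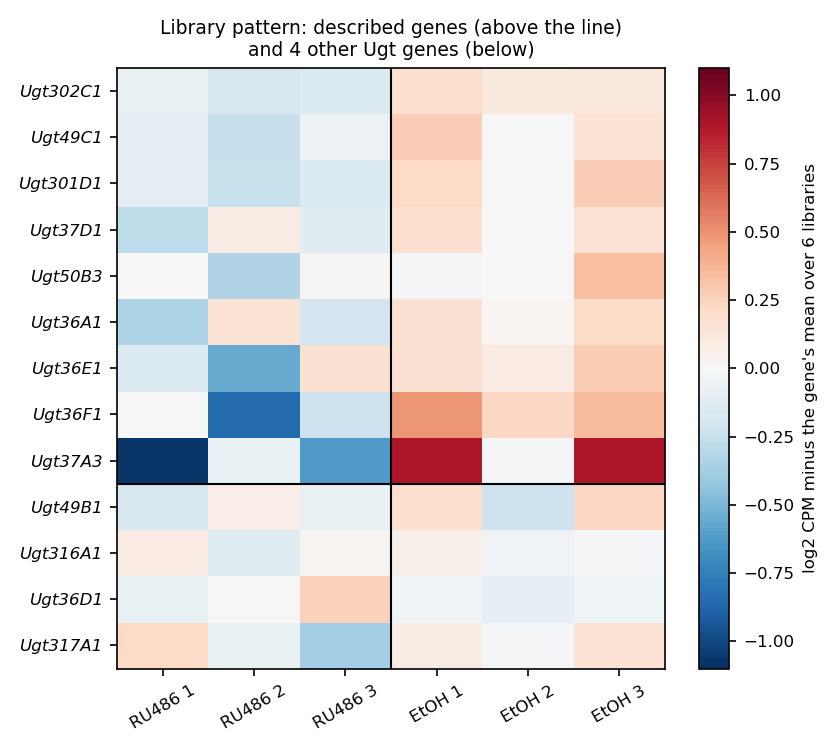
Log2 CPM of each gene minus its mean over the 6 libraries, from blue (low) to red (high), for the 9 genes above the line and Ugt49B1, Ugt316A1, Ugt36D1 and Ugt317A1 below it, RU486 libraries left of EtOH libraries. Among the 9, EtOH replicate 2 is paler than the other EtOH libraries for most genes, and RU486 replicate 2 is the bluest library for Ugt36E1 and Ugt36F1 and pale red for Ugt36A1 and Ugt37D1.

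Markers of the olfactory organs, in which Ugt genes are known to be expressed, shared part of the pattern of these sums. The 14 olfactory markers, among them the odorant co-receptor gene Orco and odorant-binding protein genes, summed to 4043, 3512 and 3809 CPM in RU486, against 5052, 3881 and 4700.3 CPM in EtOH. EtOH replicate 2 was the lowest of its group, as it was for the 9 genes. Within RU486, replicate 1 was the highest for these markers and replicate 3 for the sum of the 9 genes. The pattern was not particular to olfactory markers, as the gene Tps1 had it too. The 7 other genes whose enzymes use UDP-glucose or its products, described below, summed to 1137, 1011 and 1101 CPM in RU486, against 1520, 1334 and 1438 CPM in EtOH. Replicate 2 was the lowest in both groups there too. This order and the difference between the groups came mostly from Tps1, the 1 gene of that list called lower. The list as a whole had a median log2 fold change of -0.04, with 3 of its 7 genes above 0. Of 12 olfactory markers tested, 12 had a log2 fold change below 0 (median -0.30). An unadjusted p under 0.05 was found for 7 of them, against 1999 of all 8945 genes tested. Groups did not overlap, with RU486 lower, for 5 of them, against 13.5% of all genes tested. Of the 12 markers 1, Obp28a, was called lower by edgeR (adjusted p = 0.00557), while Or67d, at -0.00, was nearly level. Snmp1 was listed at 0 in every library. The sum of the 9 genes was divided by that of the olfactory markers. This gave 0.0854, 0.0946 and 0.0922 in RU486, against 0.0855, 0.0995 and 0.0918 in EtOH, with overlapping groups. The mean sum in RU486 was 0.823 times that in EtOH for the 9 genes, which were chosen for low fold changes, and 0.834 times for the markers. Dividing by any list that fell to a like degree would give such an overlap, so the quotient does not tell of tissue. In whole heads, fewer cells of a type and less RNA per cell cannot be told apart, and the part of the olfactory tissue in the values of the 9 genes was not tested.

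**Figure D5:**
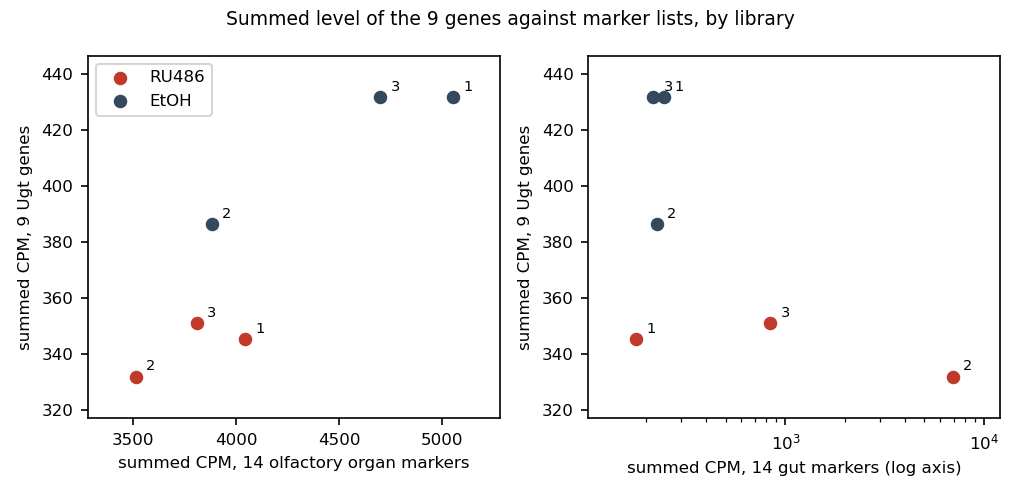
Summed CPM of the 9 Ugt genes (vertical axis, which does not start at 0) against the summed CPM of 14 olfactory organ markers (left) and of 14 gut markers (right, log axis), with a numbered point for each replicate. On the left, EtOH replicate 2 lies between the other EtOH libraries and the RU486 libraries on the vertical axis and within the RU486 range on the horizontal axis, at 3881 CPM, and RU486 replicate 2 stands far to the right in the gut panel, at 6936 CPM.

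Other tissue markers showed other patterns. Eye markers summed to 64531, 62142 and 65463 CPM in RU486, against 75712, 64860 and 64498 CPM in EtOH. By edgeR 0 of 11 were called, and 11 of 11 were below 0. An unadjusted p under 0.05 was found for 4 of the 11, against 1999 of all 8945 genes tested. Of 7 fat body markers tested, 5 were called lower, led by Obp99b and Lsp1beta, at 6.54 ± 3.24 and 9.26 ± 4.65 CPM in RU486 and 147 ± 40.9 and 106 ± 43.6 CPM in EtOH. These 2 calls held without any 1 library, whereas the other 3, of the yolk protein genes Yp1, Yp2 and Yp3, each held in 1 of 6 such fits. The summed fat body level, mostly of apolpp, was 5357 to 5724 CPM in RU486 and 5620 to 6434 CPM in EtOH. Of 12 glia markers 3 were called lower and 2 higher, and these calls held without any 1 library. By smallest p, wrapper and Gat led, at 12.6 ± 0.739 and 48.7 ± 5.40 CPM in RU486 and 54.2 ± 4.33 and 184.5 ± 14.6 CPM in EtOH. The glia markers summed to 5201 to 5566 CPM in RU486 and 5286 to 5415 CPM in EtOH, mostly from genes that were not called. The glia genes moody, alrm and Tret1-1 were listed at 0. Muscle markers (0 of 7 called, 0 at an unadjusted p under 0.05) summed to 3897 to 4280 CPM in RU486 and 3687 to 4494 CPM in EtOH. Neuron markers (0 of 9 called, 2 at an unadjusted p under 0.05) summed to 5763 to 5929 CPM in RU486 and 4956 to 7132 CPM in EtOH, highest in EtOH replicate 2. The part of these tissues in the values of the Ugt genes was not tested.

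A second set of Ugt genes was seen mainly in RU486 replicate 2. They were picked out after their values were seen, as genes with at least 8 counts there and more than 3 times the CPM of any other library. Ugt303B3 had 93 counts in that library and at most 6 in any other. Ugt303A1 had 55 and at most 6, Ugt37B1 48 and at most 16, and Ugt37A2 27 and at most 1. Ugt303B1, with 27 counts, and Ugt303B2, with 8, had 0 in the other 5 libraries, and Ugt304A1 had 15 and at most 2. Gut markers, among them the digestive enzymes Amy-p, Amy-d and betaTry, summed to 6936 CPM in that library, against 177 and 836 CPM in RU486 replicates 1 and 3 and 216 to 246 CPM in EtOH. Of 7 gut markers tested, edgeR called 2 higher, Amy-p and Amy-d, and 1 lower, Npc2h. Npc2h had 137, 129 and 132 CPM in RU486, against 205, 174 and 180 CPM in EtOH (log2 fold change -0.49, SE 0.08, adjusted p = 0.00642). With 1 library left out, Npc2h was called in 6 of 6 fits, Amy-p in 4 and Amy-d in 2. The part of gut tissue in the counts of these Ugt genes was not tested. None of the 9 genes was seen mainly in RU486 replicate 2, as the choice of low fold changes would favour. Ugt36A1, Ugt37A3 and Ugt37D1 were highest of the RU486 libraries there. Ugt49B2 and Ugt307A1 were listed at 0 in every library, which by counting error alone allows up to 0.295 CPM in the shallowest library (3 counts). Genes known to be abundant in fly heads, such as the arrestin gene Arr2 and the P450 gene Cyp4g1, were also listed at 0, so a 0 here need not mean that a transcript was missing.

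The next list holds genes that supply UDP-glucose, the sugar donor, or convert it. Glucose is phosphorylated by hexokinase, turned by the phosphoglucomutase Pgm1 and joined to UTP by UGP, and sgl oxidises UDP-glucose to UDP-glucuronate. Of 13 listed genes 10 were tested, 2 rose, 1 fell and 7 did not pass (median -0.11). The dehydrogenase gene sgl rose to 107, 169 and 111 CPM in RU486, against 67.4, 65.7 and 67.7 CPM in EtOH (log2 fold change 0.95, SE 0.16, adjusted p = 0.00707). It was highest in RU486 replicate 2 and its call was lost without EtOH replicate 1 (adjusted p = 0.0536) or EtOH replicate 3 (0.0538). Hex-A, a hexokinase gene, rose to 584 ± 9.38 CPM in RU486, against 460 ± 17.8 CPM in EtOH (log2 fold change 0.35, SE 0.07, adjusted p = 0.0209), a call that held without EtOH replicate 2 but was lost without any 1 of the other 5 libraries (adjusted p of 0.0581 to 0.0884). Galk, the galactokinase gene, fell to 128, 132 and 152 CPM in RU486, against 218, 195 and 209 CPM in EtOH (log2 fold change -0.59, SE 0.09, adjusted p = 0.00386). Pgm1 (-0.34, SE 0.09, adjusted p = 0.0558) and UGP (-0.34, SE 0.09, adjusted p = 0.0608) did not pass.

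Of 7 other genes whose enzymes use UDP-glucose or its products, 1 fell, 0 rose and 6 did not pass (median -0.04). Tps1, which makes trehalose, the blood sugar of insects, fell to 618, 492 and 582 CPM in RU486, against 965, 796 and 908 CPM in EtOH (log2 fold change -0.66, SE 0.11, adjusted p = 0.00634). The glycogen synthase gene Glys (-0.10, SE 0.08) and GlcT, which makes glucosylceramide (0.06, SE 0.07), did not pass.

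Regulators of the response to foreign compounds were not called. Of 7 tested, edgeR called 0 (median 0.08). An unadjusted p under 0.05 was found for 2 of the 7, against 1999 of all 8945 genes tested. The DESeq2 Wald test and limma-voom called 1 each. The highest fold change was that of cnc, the fly counterpart of the mammalian factor Nrf2, at 376 ± 6.83 CPM in RU486 and 313 ± 10.7 CPM in EtOH (log2 fold change 0.26, SE 0.08, adjusted p = 0.0741). Keap1 had a log2 fold change of 0.24 (SE 0.08) and the xenobiotic receptor gene Hr96 one of -0.06 (SE 0.07). Of 14 antioxidant and conjugation genes 1 rose, 1 fell and 12 did not pass (median -0.13). Cat, the catalase gene, rose (log2 fold change 0.35, SE 0.08, adjusted p = 0.0338), and Cyp6g1, a cytochrome P450 gene known from insecticide resistance, fell (-0.43, SE 0.10, adjusted p = 0.0335). Both calls were lost without any 1 of the RU486 libraries and without EtOH replicate 3, with adjusted p of 0.0536 to 0.127, and that of Cyp6g1 also without EtOH replicate 1 (0.0976).

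Among transporters that carry conjugates and other organic compounds across membranes, 10 of 14 were tested, 1 rose, 2 fell and 7 did not pass (median 0.22). The sign of this median rested on RU486 replicate 2, the library with high gut markers, without which it was -0.07 over 11 genes tested. In that library Mdr50, Mrp5 and Oatp33Ea, which did not pass, had 31.7, 134.5 and 58.5 CPM, and no other library had more than 2.87, 35.6 and 14.5 CPM of them. Mdr65, which encodes an ABC transporter of the glia that seal the brain, rose to 137, 158 and 130.4 CPM in RU486, against 71.6, 70.4 and 77.3 CPM in EtOH (log2 fold change 0.95, SE 0.08, adjusted p = 0.000324). The organic anion transporter genes Oatp58Dc and Oatp74D, of which Oatp74D is known as an importer of ecdysone, fell to 58.1 ± 3.26 and 41.5 ± 4.45 CPM in RU486, against 91.2 ± 5.07 and 63.4 ± 5.10 CPM in EtOH (log2 fold change -0.65, SE 0.08, adjusted p = 0.00110, and -0.61, SE 0.10, adjusted p = 0.00680). These 3 calls held whichever single library was removed.

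For Ugt302C1, the 3 non-Ugt genes, among those averaging log2 CPM 1 or more, with the most similar profile over the 6 libraries were CG15522, Argk1 and UQCR-Q. Their log2 CPM, centred on each gene's mean, differed from that of Ugt302C1 by 0.0155, 0.0164 and 0.0235 on average. As both groups entered this matching, their like fold changes follow from it. CG15522 had 17.2 ± 0.767 CPM in RU486 and 20.7 ± 0.750 CPM in EtOH (log2 fold change -0.27, SE 0.09). Argk1, the arginine kinase gene, had 1804 ± 37.4 CPM in RU486 and 2132 ± 44.0 CPM in EtOH (log2 fold change -0.24, SE 0.06). UQCR-Q, of respiratory complex III, had 209 ± 5.95 CPM in RU486 and 256 ± 12.7 CPM in EtOH (log2 fold change -0.29, SE 0.08). By edgeR Argk1 was called lower (adjusted p = 0.0325), while CG15522 (0.129) and UQCR-Q (0.0519) did not pass. Of the genes beside Ugt302C1, CG4757, 1463 bases away, had 66.4, 41.6 and 32.1 CPM in RU486, against 52.4, 58.8 and 51.4 CPM in EtOH (log2 fold change -0.21, SE 0.22). Ugt302E1, 585 bases away, had 3, 9 and 4 counts in RU486, against 7, 8 and 9 counts in EtOH, too few to be tested.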

How the data were processed

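The authors deposited raw read counts per gene, 1 column per library, with no normalisation, per the file headers. BDGP6 is the build in the submitters' processing notes, and a stranded kit is named in the labels' protocols. For the aligner, counter, annotation and strand of counting, nothing is given in the sources used here. The table's name column was empty for 15438 rows, so symbols came from a FlyBase table that matched 17626 of 17753 identifiers. Positions and exonic lengths came from Ensembl release 115. Library totals were 10156909 to 10633167 counts in RU486 and 11689966 to 12636787 in EtOH.

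These counts were tested with edgeR 4.0.16 under R 4.3.3 (filterByExpr at a minimum count of 10, TMM factors, two-sided quasi-likelihood test, Benjamini-Hochberg adjustment over 8945 genes, called under 0.05). The SE of a log2 fold change (RU486 minus EtOH) is its size divided by the square root of F. Levels are mean ± SD of 3 libraries. Alternatives used DESeq2 1.42.0, limma 3.58.1, other scalings, filters and thresholds, a replicate block and each library left out. The procedure was tested on simulated counts. It recovered 4 of 50 changes of 1.25-fold, 23 of 50 of 1.5-fold, 36 of 50 of 2-fold and 46 of 50 of 3-fold, with 7 false calls. A gene that did not pass may thus have changed by a small factor. No replicates agreed within sampling noise (chi-square per degree of freedom 8.03 or more).

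The members and lists were chosen with earlier results of these data known. Named were the 9 genes, other called Ugt genes, Ugt genes near the limit of the choice, up to 3 called genes of a pathway list and 2 of a marker list, neighbours and the 3 genes most like Ugt302C1. Other named genes were chosen after their values were seen: Pgm1, UGP, Glys, GlcT, cnc, Keap1, Hr96, Orco, Or67d, Snmp1, apolpp, Amy-d, betaTry, Arr2, Cyp4g1, Yp1, Yp2, Yp3, Mdr50, Mrp5, Oatp33Ea, the 3 glia genes listed at 0 and the Ugt genes of RU486 replicate 2.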

Additional observations from a re-analysis of the deposited data

How the results depend on the processing

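All 9 genes kept a log2 fold change below 0 under all 15 alternatives, as the choice of members would favour. Among them 1 was called by edgeR, against 2 with the DESeq2 Wald test, 3 at a threshold of 0.1, 0 at 0.01, 4 with the replicate block and 6 without both replicate 2 libraries. Leaving out 1 library gave between 0 and 4. The block added Ugt301D1 (adjusted p = 0.0403), Ugt49C1 (0.0450) and Ugt36F1 (0.0496). Same-numbered libraries correlated at 0.124, 0.269 and -0.0441 over 8945 genes, in their deviations from the group mean. RU486 replicate 2 correlated best with its own number, but RU486 replicate 1 did so with EtOH replicate 3, at 0.291. With 3 libraries per group such correlations cannot settle whether the numbers pair the samples, which is not known.

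Of the Ugt35 group 4 were called, against 2 with no filter, limma-voom, the replicate block or without both replicate 2 libraries, 1 at a threshold of 0.01, and 1 to 2 when 1 library was left out. Of the Ugt genes outside it and not chosen, 0 were called, with 0 in each fit that left out 1 library, and 2 without both replicate 2 libraries. Over all genes tested, 683 were called (390 higher, 293 lower), 1114 (611 and 503) at 0.1, 321 (204 and 117) at 0.01 and 1394 (827 and 567) without both replicate 2 libraries, and 872 both with the replicate block (498 and 374) and with the DESeq2 Wald test (490 and 382). Leaving out 1 library gave 341 to 1441 (214 to 853 higher, 127 to 588 lower).

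The UDP-glucose supply list had 3 calls, against 5 with upper-quartile factors, the DESeq2 Wald test, limma-voom, the replicate block or a threshold of 0.1, 7 without both replicate 2 libraries, and 1 to 7 with 1 library left out. Xenobiotic regulators had 0 calls, against 1 with the DESeq2 Wald test, limma-voom, a threshold of 0.1 or without both replicate 2 libraries, and 0 to 1 with 1 library left out. Antioxidant and conjugation genes had 2, against 1 with upper-quartile factors or no filter, 4 with the replicate block or at 0.1, 5 without both replicate 2 libraries, 0 at 0.01 and 0 to 5 with 1 library left out. Transporters had 3, against 6 without both replicate 2 libraries (median log2 fold change -0.24), and the marker lists together 14, against 24 without both replicate 2 libraries, 9 at 0.01 and 9 to 25 with 1 library left out. The cause of these moves was not tested.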
